A study of Mus musculus with 20 samples.

Results

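The genes described here carry amino acids into liver cells or start their conversion: Slc38a3, Slc38a2, Slc38a4 and Slc7a2, which encode transporters of the plasma membrane, and Gls2, Asns, Sds, Hal, Got1 and Gpt, which encode enzymes. They are 10 of the 45306 genes in the expression table, matched by gene symbol, and all 10 passed the filter on low counts. The list was chosen by the levels of these genes over the 4 groups of mice, which were already known, and it is not recorded which comparison weighed most. Fold changes and p-values of these genes between groups therefore describe the levels and do not test the choice of the list, and nothing is read from how many of them passed a threshold.

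Liver RNA of 20 mice was sequenced, 1 library per mouse and 5 mice per group. Control mice were wild-type, on a C57BL/6 background, 5 weeks old at the start, and kept at 24 °C. CE mice were wild-type and were placed at 4 °C for 3 h per day over 3 weeks. Sirt2-/- mice had exons 5 to 7 of Sirt2 targeted by CRISPR in the whole animal and were kept as the Control mice were, and Sirt2-/-/CE mice had the same deletion and the same cold exposure. The sex of the mice is not given in the sources used here. Because Sirt2 was targeted in the whole animal, a level in the liver of these mice need not follow from its loss in liver cells. The study asked how the loss of Sirt2, an NAD-dependent deacetylase, and repeated cold act together on liver metabolism.

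The liver takes up amino acids from portal blood, uses their carbon for glucose and their nitrogen for urea, and returns glutamine to the blood. SLC38 carriers move small neutral amino acids together with sodium, and SLC7 carriers move cationic or large neutral ones. Breakdown starts with enzymes that remove or exchange the amino group, and many of them are held in hepatocytes near the portal vein, while glutamine handling is split between both ends of the lobule. Feeding, glucagon, glucocorticoids, the circadian clock and the amino acid response through ATF4 are known to control such genes. Asns makes an amino acid and Got1 and Gpt run in both directions, so that not every enzyme of the list only breaks amino acids down.

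Total counts ranged from 35499796 to 53917339 per mouse. Sirt2 itself had a mean of 42.3 ± 1.31 CPM (counts scaled to the size of the library; SD, n = 5) in Control, 46.6 ± 6.08 in CE, 21.95 ± 5.01 in Sirt2-/- and 21.6 ± 3.42 in Sirt2-/-/CE livers, and no mouse of the deleted groups reached the lowest mouse of the other groups. The 6 hepatocyte markers (Alb, Apoa1, Ttr, Cps1, Hnf4a and Tat) were all detected, with summed levels of 37600 to 75700 FPKM (fragments scaled to gene length and depth), and the summed muscle markers were between 0.264 and 1.28 FPKM. In 4 mice, CE replicate 9, Sirt2-/- replicates 14 and 15 and Sirt2-/-/CE replicate 19, the circadian clock score, the difference on a centred log2 scale between genes of the negative arm (Ciart, Dbp, Nr1d2, Per3 and Tef) and of the positive arm (Arntl, Clock and Npas2), lay between -6.48 and -4.52, against -0.81 to 3.36 in the other 16. These mice stood apart from their groups. For some of the genes, lists and classes values are given below also without them, but not for all that they move.

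For 5 of the genes a stretch before the transcription start was found in the RefSeq promoter table (build GRCm38.p6), with 7 starts in all, of which 3 belong to Slc38a4. Sequences are shown for Asns (30 bases) and Got1 (150 bases), the genes among these 5 with the core of the amino acid response element in the 250 bases before the start, and, with 150 bases each, for Slc38a2 and Slc38a4, whose levels varied together between mice. All 4 genes lie on the reverse strand and the sequences read in the direction of transcription, at chr6:7693214-7693243 for Asns, chr19:43524606-43524755 for Got1, chr15:96699729-96699878 for Slc38a2 and chr15:97055957-97056106 for the most distal start of Slc38a4. Capitals mark the element, searched on both strands as TGATGNAA.
Asns: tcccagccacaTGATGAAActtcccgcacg
Got1: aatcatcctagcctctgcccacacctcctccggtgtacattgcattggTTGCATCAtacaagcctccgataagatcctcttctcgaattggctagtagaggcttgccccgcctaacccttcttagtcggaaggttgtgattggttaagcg
Slc38a2: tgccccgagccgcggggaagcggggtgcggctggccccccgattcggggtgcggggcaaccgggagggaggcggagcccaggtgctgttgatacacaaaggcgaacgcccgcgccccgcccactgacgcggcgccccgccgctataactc
Slc38a4: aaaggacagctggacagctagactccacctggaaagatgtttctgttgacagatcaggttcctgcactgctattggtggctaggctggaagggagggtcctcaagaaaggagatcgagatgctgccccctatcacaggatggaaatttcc

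The element started 23 bases before the RefSeq start in Asns and, on the opposite strand, 102 bases before it in Got1. The annotations differ on the start of Asns: the RefSeq start lies 45 bases inside the gene as GENCODE places it, so that all 8 bases of the element are in an untranslated exon of that annotation. It was present in 3.45% of the 32851 promoters of the table. The cAMP response element TGACGTCA (1.55% of promoters), the E-box CACGTG bound by clock proteins (6.02%) and the D-box TTATGNAA (3.07%) had no match in these windows of the 5 genes. Slc38a3, Slc7a2, Gls2, Sds and Gpt were not among the entries. A match is a run of letters and not a measured binding site.

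Per length and averaged over the 20 mice, Slc38a3 had the highest level of the list, at 470.7 FPKM. Slc38a4 followed at 259.1 FPKM, and the 4 enzymes Sds (195.7), Gpt (157.3), Gls2 (145.8) and Got1 (139.4) formed a narrow band of mean FPKM below it. Slc7a2 and Hal were lower, at 66.3 and 57.9 FPKM, and Slc38a2 reached 39.4 FPKM. Asns was low in every liver, with a mean of 2.16 FPKM.

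Slc38a3 (ENSMUSG00000010064; GRCm38 chromosome 9, 107650634 to 107669530) encodes SNAT3, the carrier of glutamine, histidine and asparagine of perivenous hepatocytes. In Control livers it was at 1974, 2046, 2951, 1597 and 1667 CPM in replicates 1 to 5. In CE livers it was at 1241, 1143, 1216, 904.3 and 1396 CPM in replicates 6 to 10. Every CE liver was therefore below every Control liver, and the CE mean was 57.6% of the Control mean.
Sirt2-/- livers were at 1219, 947.2, 1373, 686.9 and 672.8 CPM in replicates 11 to 15, and Sirt2-/-/CE livers at 1003, 992.3, 1120, 834 and 1211 CPM in replicates 16 to 20. Both deleted groups also lay entirely below Control, with means of 47.9% and 50.4% of it, and both overlapped the CE group and each other. The lowest value of each of the CE, Sirt2-/- and Sirt2-/-/CE groups belonged to a mouse with a clock score under -4. In a bulk liver, fewer cells of a type and less RNA per cell cannot be told apart.

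In edgeR's quasi-likelihood fit of all 20 libraries, the log2 fold change of Slc38a3 in Sirt2-/- against Control was -1.06 (SE 0.21, adjusted p = 0.0335), and it was the 1 gene of the list past an adjusted p of 0.05. The background was 0.89% of the 15616 genes tested. In CE against Control its log2 fold change was -0.79 (SE 0.21, edgeR adjusted p = 0.191), and in Sirt2-/-/CE against Control it was -0.99 (SE 0.21, edgeR adjusted p = 0.0756). The 3 comparisons share the Control mice, and all p-values measure the spread between these mice only.
Among the other groups the order of Slc38a3 did not exceed its spread: its log2 fold change was 0.07 (SE 0.21) in Sirt2-/-/CE against Sirt2-/- and -0.19 (SE 0.21) in Sirt2-/-/CE against CE. The response to CE differed by 0.87 between the genotypes (SE 0.29, unadjusted p = 0.00757, edgeR adjusted p = 0.45), with a log2 fold change of -0.79 in wild-type mice and 0.07 in mice without Sirt2. This interaction did not pass the test over all genes. With the clock score as a covariate it was 0.57 (SE 0.22), and without the 4 mice of low clock score 0.56 (SE 0.27). Without those mice the log2 fold change with CE was -0.70 in wild-type mice and -0.14 in mice without Sirt2.

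With the clock score as a covariate, the log2 fold change of Slc38a3 in Sirt2-/- against Control was -0.69 (edgeR adjusted p = 0.227), and without the 4 mice of low score it was -0.79 (adjusted p = 0.313). In CE and Sirt2-/-/CE against Control it was -0.50 and -0.62 with the covariate (adjusted p = 0.26 and 0.2), and -0.70 and -0.94 without these mice (adjusted p = 0.193 and 0.0575). The call was also lost in a fit of only these 2 groups (-1.07, adjusted p = 0.107) and when any of Control replicates 1, 2 and 3 or Sirt2-/- replicates 12, 14 and 15 was left out. The fold change without 1 mouse stayed between -1.22 and -0.89, with adjusted p from 0.00848 to 0.102. DESeq2 gave an adjusted p of 0.0334 for Slc38a3 in CE against Control and 0.000269 in Sirt2-/- against Control.

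**Figure D1:**
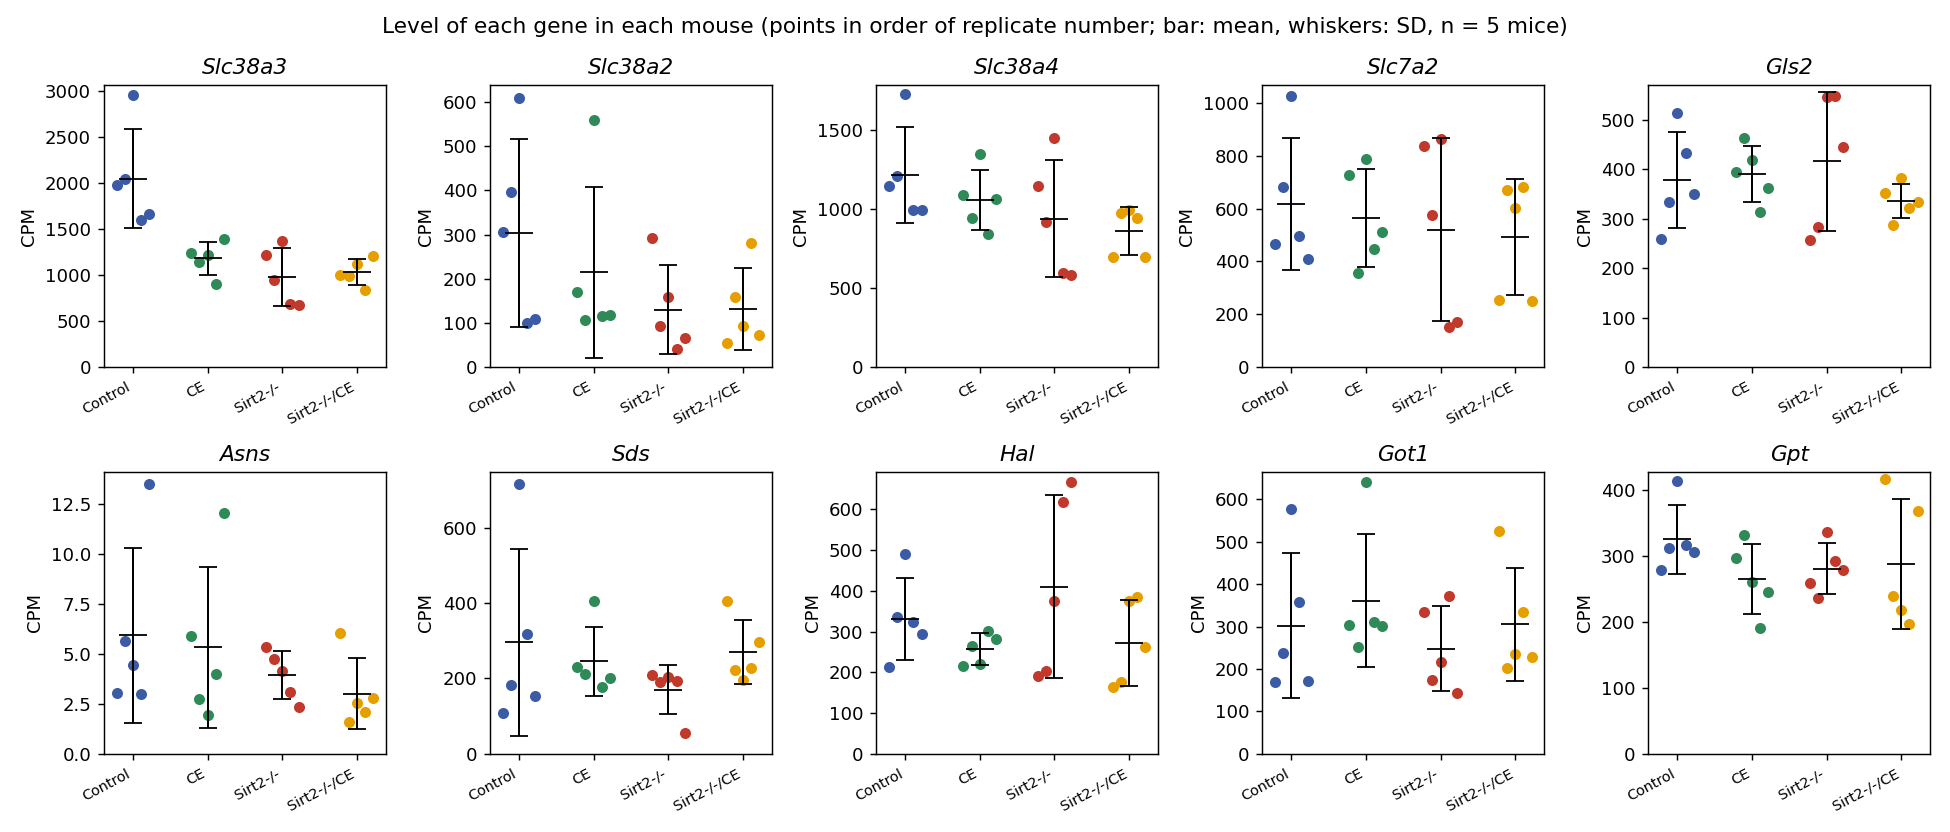
CPM (vertical axis, from 0) of the 10 genes in each mouse of the 4 groups, with 1 point a mouse and the mean with its SD over 5 mice as bar and whiskers. In the panel of Slc38a3 the Control points, from 1597 to 2951 CPM, lie above all others, while the groups overlap in most other panels.

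Slc38a2 (ENSMUSG00000022462; chromosome 15, 96687392 to 96699730) encodes SNAT2, a carrier that many cells induce when amino acids are short. Control livers were at 305.7, 396.1, 609.1, 99.6 and 109.6 CPM, and CE livers at 170.7, 107.3, 558.5, 116.7 and 117.7 CPM. Sirt2-/- livers were at 292.1, 94.0, 158.8, 40.4 and 65.3 CPM, and Sirt2-/-/CE livers at 53.5, 158.4, 94.1, 281.3 and 72.4 CPM. The highest mouse was 15.1 times the lowest, and all 4 groups overlapped. The group means of Sirt2-/- and Sirt2-/-/CE were 42.8% and 43.4% of the Control mean, and the SD within groups on the log2 scale was 1.06. Its log2 fold change was -1.22 (SE 0.62) in Sirt2-/- and -1.20 (SE 0.62) in Sirt2-/-/CE, each against Control, and neither had an unadjusted p under 0.05. With the clock score as a covariate these values were -0.76 (SE 0.66) and -0.42 (SE 0.73). Without the 4 mice of low score they were -0.74 (SE 0.65) and -1.70 (SE 0.61, unadjusted p = 0.0131, edgeR adjusted p = 0.238).

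Slc38a4 (ENSMUSG00000022464; chromosome 15, 96994820 to 97055956) encodes SNAT4, a carrier found mainly in liver that also takes cationic amino acids. Control livers were at 1144, 1210, 1725, 990.4 and 992.5 CPM, and CE livers at 1090, 941.4, 1346, 840.8 and 1059 CPM. Sirt2-/- livers were at 1143, 918.5, 1447, 595.3 and 584.8 CPM, and Sirt2-/-/CE livers at 697.3, 973.5, 989.9, 943.3 and 695.8 CPM. In CPM the highest Sirt2-/-/CE liver (989.9) was just under the lowest Control liver (990.4), and the 2 Sirt2-/- livers of low clock score were the lowest of all. In the deposited FPKM neither held: Sirt2-/-/CE livers reached 284.3 FPKM of Slc38a4 against a lowest Control liver at 226.2, and the 2 Sirt2-/- livers were at 232.1 and 201.5, above Sirt2-/-/CE replicates 16 and 20 at 158.4 and 189.2. Slc38a4 had a log2 fold change of -0.50 in Sirt2-/-/CE against Control (SE 0.23, edgeR adjusted p = 0.434), which was -0.11 (SE 0.21) with the clock score as a covariate and -0.55 (SE 0.20) without the 4 mice of low score. In Sirt2-/- against Control it was -0.37 (SE 0.23), and -0.05 (SE 0.22) without those mice.

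Slc7a2 (ENSMUSG00000031596; chromosome 8, 40862396 to 40922308) encodes CAT2, which brings arginine, lysine and ornithine into the cell. It was at 466.1, 682.8, 1024, 497.2 and 410.3 CPM in Control livers, with CE livers at 728.4, 354.4, 788.8, 446 and 509.4 CPM, Sirt2-/- livers at 837.6, 574.7, 864.7, 151 and 170.8 CPM, and Sirt2-/-/CE livers at 254.6, 669.4, 601.4, 680.9 and 251.1 CPM. All groups overlapped, and Sirt2-/- replicates 14 and 15 and Sirt2-/-/CE replicates 16 and 20 were the lowest livers in CPM, as they were for Slc38a4. The means of the 3 other groups were 79.8% to 91.8% of the Control mean, but the direction turned in Sirt2-/- under both clock settings and in the other groups with the covariate alone. For Slc7a2 in Sirt2-/- against Control the log2 fold change was 0.30 (SE 0.37) without the 4 mice of low score and 0.19 (SE 0.41) with the clock score as a covariate. Its values in Sirt2-/-/CE against Control were -0.48 (SE 0.35) and 0.39 (SE 0.45), and in CE against Control -0.04 (SE 0.35) and 0.36 (SE 0.42).

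Of the enzymes, Gls2 (ENSMUSG00000044005; chromosome 10, 128194457 to 128210004) encodes the liver glutaminase, which frees ammonia from glutamine in periportal mitochondria. It ranged from 257 to 548.2 CPM over all mice, with group means of 88.9% to 110.1% of the Control mean. The highest mean of Gls2, that of Sirt2-/-, includes 548.2 and 444.2 CPM in the 2 mice of low clock score, and without the 4 such mice its log2 fold change against Control was -0.06 (SE 0.24). Gpt (ENSMUSG00000022546; chromosome 15, 76695716 to 76699686), the alanine aminotransferase known from blood tests of liver injury, ranged from 191 to 415.9 CPM, with group means of 81.5% to 88.6% of the Control mean. These were the steady genes of the list together with Slc38a3 and Slc38a4: their SD within groups was 0.347 and 0.318 on the log2 scale, against a median of 0.289 over the 3922 genes that averaged 10 FPKM or more.

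Sds (ENSMUSG00000029597; chromosome 5, 120476526 to 120483932) encodes serine dehydratase, which turns serine into pyruvate and is a classic target of glucagon. Control livers were at 108, 181.9, 715.4, 317.5 and 154.6 CPM, and CE livers at 231, 211.2, 405.6, 178.2 and 201 CPM. Sirt2-/- livers were at 208.3, 189.6, 203.4, 193 and 55.1 CPM, and Sirt2-/-/CE livers at 405.2, 221.9, 197, 227.4 and 296.5 CPM. The Control livers alone spanned 6.62-fold, and every other liver lay within their range except Sirt2-/- replicate 15, the lowest of all. Sds shares 360 of its 1694 exon bases with Plbd2 on the other strand, the strand setting of the counting is not given in the sources used here, and Plbd2 held 11.1% to 46.3% of the counts of both genes, so that part of the reads of Sds may belong to Plbd2.

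Got1 (ENSMUSG00000025190; chromosome 19, 43499752 to 43524605) encodes the cytosolic aspartate aminotransferase of the malate-aspartate shuttle. It was at 169.2, 237.3, 576.9, 357.9 and 170.9 CPM in Control livers, with CE livers at 304.8, 251.2, 639.6, 310.5 and 300.9 CPM, Sirt2-/- livers at 333.6, 174.8, 216.5, 371.2 and 143.9 CPM, and Sirt2-/-/CE livers at 525.6, 202.5, 236.3, 334.3 and 228.5 CPM. The groups overlapped throughout, and in 3 of them a single mouse, Control replicate 3, CE replicate 8 and Sirt2-/-/CE replicate 16, was well above its group. The same mice were the highest of their groups for Sds.

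Hal (ENSMUSG00000020017; chromosome 10, 93488768 to 93519304) encodes histidine ammonia-lyase, the first step of histidine breakdown. Control livers were at 212.5, 336.7, 489.4, 323 and 294.9 CPM, and CE livers at 215.5, 265.1, 220.1, 302.4 and 282.5 CPM. Sirt2-/- livers were at 190.8, 202.2, 375.3, 616.7 and 667 CPM, and Sirt2-/-/CE livers at 164.8, 176, 375.6, 383.5 and 261.7 CPM. The groups overlapped, and the 2 Sirt2-/- livers of low clock score were the highest of all, while in CPM they were the lowest for Slc38a3, Slc38a4 and Slc7a2. The other 3 Sirt2-/- livers lay inside the Control range or just below it. The log2 fold change of Hal in Sirt2-/- against Control, 0.31 (SE 0.33), was -0.37 (SE 0.30) without the 4 mice of low score. With the clock score as a covariate Hal had -0.78 (SE 0.27, unadjusted p = 0.00957, edgeR adjusted p = 0.299) in CE against Control. In Sirt2-/-/CE against Control it then had -0.84 (SE 0.29, unadjusted p = 0.00882, edgeR adjusted p = 0.316). Without the 4 mice of low score these values were -0.42 (SE 0.28) and -0.45 (SE 0.28).

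Asns (ENSMUSG00000029752; chromosome 6, 7675169 to 7693254) encodes asparagine synthetase, which ATF4 is known to induce when amino acids are short. Control livers were at 3.03, 5.63, 4.46, 2.995 and 13.5 CPM, and CE livers at 5.89, 2.76, 1.95, 3.99 and 12.1 CPM. Sirt2-/- livers were at 5.36, 4.77, 4.16, 3.10 and 2.37 CPM, and Sirt2-/-/CE livers at 6.06, 1.61, 2.57, 2.08 and 2.78 CPM. All groups overlapped, with 1 high mouse each in Control and CE, and the mean of Sirt2-/-/CE was 50.9% of the Control mean with a log2 fold change of -0.97 (SE 0.49).

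Over the list, 2 genes were higher and 8 lower in CE than in Control, with a median log2 fold change of -0.23 against -0.0079 over all genes tested. In Sirt2-/- against Control the numbers were also 2 and 8, with a median of -0.33 against 0.017. The numbers were 1 and 9 in Sirt2-/-/CE against Control (median -0.30 against 0.033), 5 and 5 in Sirt2-/-/CE against Sirt2-/- (-0.03 against 0.006), and 3 and 7 in Sirt2-/-/CE against CE (-0.21 against 0.017). With the clock score as a covariate the median of the list was 0.0067 in CE, -0.20 in Sirt2-/- and -0.18 in Sirt2-/-/CE, each against Control, and without the 4 mice of low score it was -0.14, -0.31 and -0.47. For Sirt2-/- against Control it was also nearer 0 by voom (-0.14), on FPKM (-0.15) and by library size (-0.18), where the median of all genes was 0.0097, 0.077 and 0.16. In the fit of all mice without a covariate, the 9 genes other than Slc38a3 gave 45 comparisons between pairs of groups. Of these 1, that of Slc38a4, had an unadjusted p under 0.05, and the lowest edgeR adjusted p was 0.365. Under the clock settings Hal and Slc38a2 also reached an unadjusted p under 0.05 by edgeR, but no adjusted p under 0.05.

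No gene of the list had an adjusted p under 0.05 in CE against Control, where the share over all genes was 0.0064%, and 1 was under an unadjusted 0.05 against 10.7% of all genes. In Sirt2-/-/CE against Control 0 passed the adjusted threshold against 0.122% of all genes, and 2 the unadjusted one against 11.2%. In Sirt2-/-/CE against CE the list had 0 at either level, against 0.0128% and 6.09% of all genes. In Sirt2-/-/CE against Sirt2-/- it again had 0, against 0% and 7.25%. Without the 4 mice of low clock score, Slc38a2 had a log2 fold change of -1.36 (SE 0.62, edgeR unadjusted p = 0.0444) in Sirt2-/-/CE against CE. Slc38a4 then had -0.50 (SE 0.22, edgeR unadjusted p = 0.0417) in Sirt2-/-/CE against Sirt2-/-. The interaction had 0 genes past the adjusted threshold, in the list and among all genes (0%), and 1 in the list, Slc38a3, at an unadjusted p under 0.05 against 8.34% of all genes. For Sirt2-/- against Control 1 of 10 was under an unadjusted p of 0.05 against 14.9%.
Groups did not overlap for 1 gene of the list in CE against Control (3.04% of all genes), 1 in Sirt2-/- against Control (3.61%), 2 in Sirt2-/-/CE against Control (2.71%), 0 in Sirt2-/-/CE against CE (1.22%) and 0 in Sirt2-/-/CE against Sirt2-/- (0.743%). The genes without overlap were Slc38a3 in all 3 comparisons with Control and Slc38a4 in the last of them. In FPKM it was Slc38a3 alone in each, against 2.62%, 4.69% and 2.94% of all genes.

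**Figure D2:**
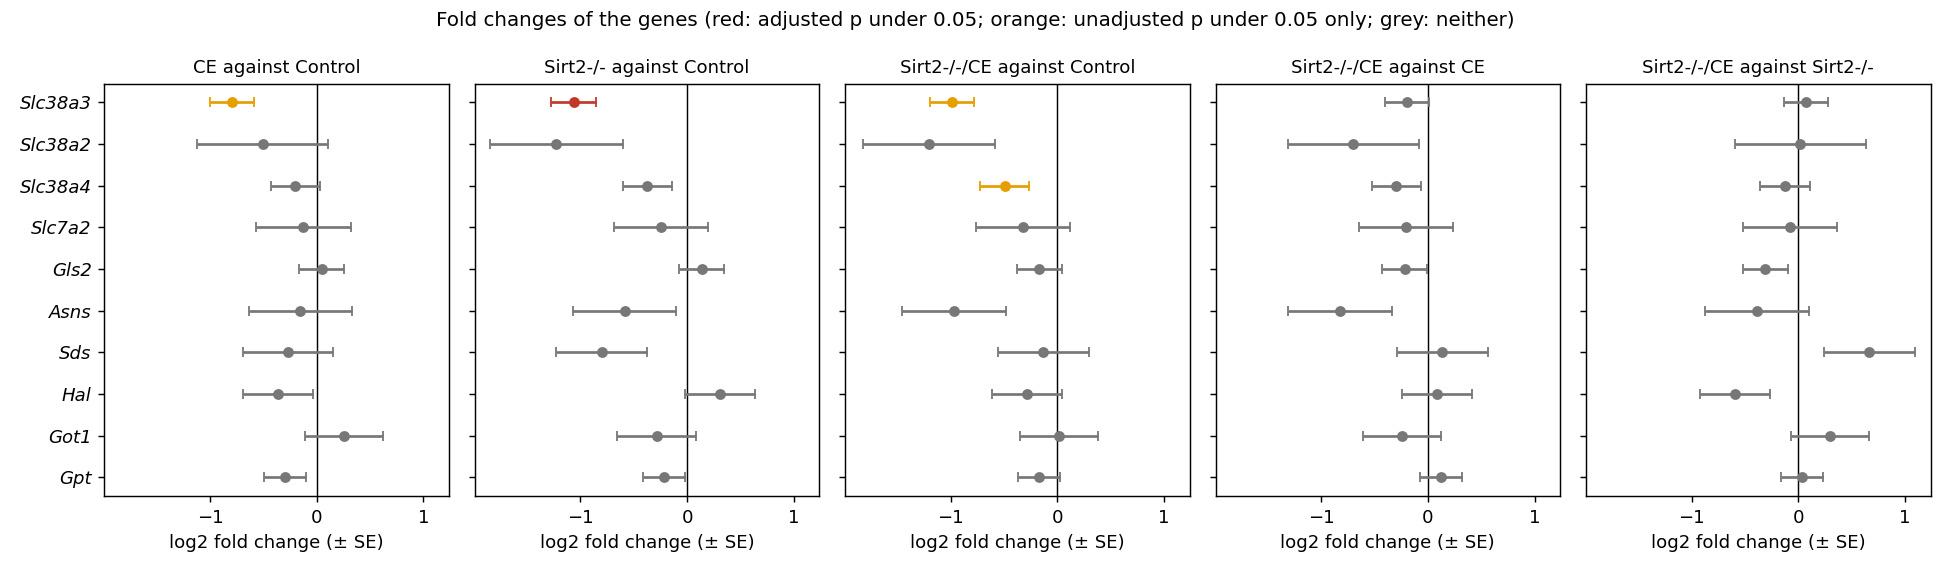
Log2 fold change (horizontal axis, whiskers: SE) of the 10 genes in 5 comparisons, from edgeR's fit of 20 mice. Slc38a3 lies at -0.79, -1.06 and -0.99 against Control and near 0 in the other 2 panels, and the whiskers of Slc38a2, Asns, Sds and Slc7a2 are wide.

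Mice of the same group differed widely in 6 of these genes. The SD within groups on the log2 scale was 1.06 for Slc38a2, 0.807 for Slc7a2, 0.794 for Asns, 0.742 for Sds, 0.613 for Got1 and 0.57 for Hal. Slc38a2 was more variable than 97.4% of the genes that averaged 10 FPKM or more, and Slc38a3, at 0.331, more than 62.2% of them.

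Over the 20 mice, the pairs past the threshold were pairs of transporters or pairs of enzymes. In the 16 mice with a clock score above -4 this split was not clear for Hal. There r was 0.657 for Slc38a3 with Hal and 0.639 for Slc38a3 with Slc38a4. Of the 45 pairs, 7 had a correlation of log2 CPM over the 20 mice with a permutation p under 0.05 after adjustment. The adjustment was over the pairs, and all 7 were positive. The list was chosen by levels over the groups of these same mice, and the share among pairs of other genes was not computed. Nothing is therefore read from the number of pairs past the threshold. Slc38a4 and Slc7a2 had the highest value, Pearson's r 0.909 (permutation p = 1e-05, the smallest that 100000 resamples can give; adjusted p = 0.00015) and Spearman's rho 0.833 (permutation p = 2e-05). It was 0.881 without the 2 mice farthest from the median of Slc38a4, 0.936 for deviations from group means and 0.876 in the 16 mice with a clock score above -4.
Slc38a2 varied with Slc38a4 (r 0.844, rho 0.865, permutation p = 1e-05 and 2e-05, adjusted p = 0.00015) and with Slc7a2 (r 0.803, rho 0.812, permutation p = 3e-05 and 5e-05, adjusted p = 0.000338). Without the 2 farthest mice these values were 0.777 and 0.778. Slc38a3 varied with Slc38a4 (r 0.771, rho 0.814, permutation p = 5e-05 and 3e-05, adjusted p = 0.00045; r 0.613 without the 2 farthest mice), and less with Slc38a2 (r 0.626, rho 0.6, permutation p = 0.00254 and 0.00561, adjusted p = 0.0163), where r was 0.457 without the 2 farthest mice. These are 5 of the 6 pairs of transporters, and r of deviations from group means ranged from 0.525 to 0.936 over them.

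Among the enzymes, Sds and Got1 varied together (r 0.812, rho 0.705, permutation p = 1e-05 and 0.0007, adjusted p = 0.00015). Without the 2 farthest mice r was 0.76, and within groups it was 0.827. Gls2 and Hal formed the other pair (r 0.659, rho 0.595, permutation p = 0.00153 and 0.00655, adjusted p = 0.0115), with r 0.572 without the 2 farthest mice and 0.679 within groups. No pair of a transporter and an enzyme passed the adjusted threshold, Slc7a2 and Hal having the lowest r, -0.312 (rho -0.063, permutation p = 0.181 and 0.793, adjusted p = 0.455), which was 0.326 without the 2 farthest mice. In the 16 mice with a clock score above -4, r with Hal was 0.657 for Slc38a3 and 0.533 for Slc38a4, against -0.114 and -0.178 over all 20, so that the low values for Hal rest on the 4 mice of low score. The libraries behind each pair are the same, so that depth and scaling are shared, and the permutations did not hold the groups fixed, so that differences between groups enter these p-values.

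**Figure D3:**
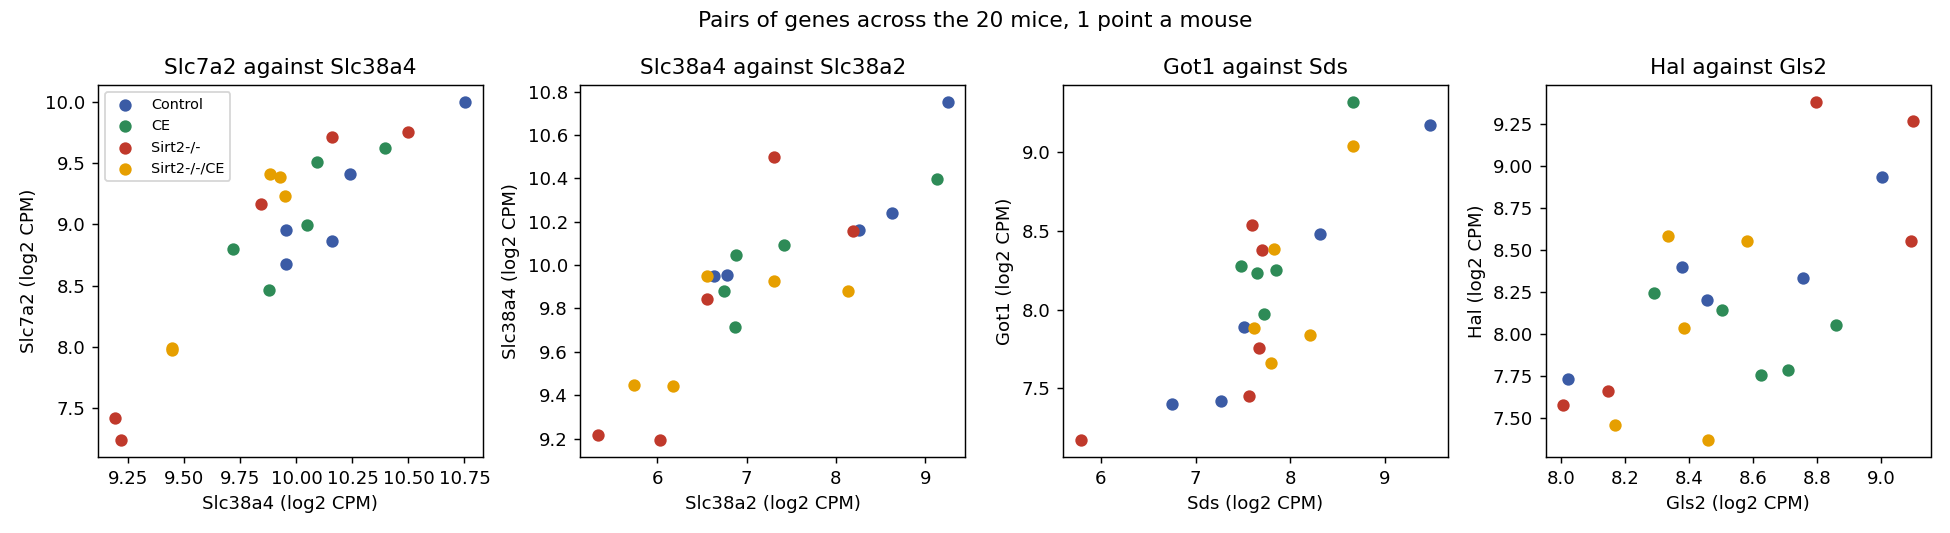
Log2 CPM of 4 pairs of genes, 1 point a mouse and 1 color a group. The points of all groups rise together for Slc38a4 with Slc7a2 (r 0.909), Slc38a2 with Slc38a4 (0.844) and Sds with Got1 (0.812), and scatter more for Gls2 with Hal (0.659).

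The genes were also set beside the clock score, in which the mice fall into separate clusters of 4 and 16. In the 4 mice of low score Slc38a3 was at 672.8 to 904.3 CPM, and in the other 16 mice at 947.2 to 2951 CPM, with no overlap. The share of all genes without overlap in this split was not computed. No Control mouse was among the 4, and Slc38a3 was highest in Control, so nothing is read from this gap. Slc38a2 overlapped, at 40.4 to 281.3 CPM against 53.5 to 609.1 CPM, and its low-score mouse in Sirt2-/-/CE, replicate 19, was the highest of that group. Slc38a4 overlapped too, at 584.8 to 943.3 CPM against 695.8 to 1725 CPM, and Hal was at 302.4 to 667 CPM against 164.8 to 489.4 CPM.
Within the 16 mice, r with the clock score was 0.763 for Slc38a3 (rho 0.735), 0.747 for Slc38a2 (rho 0.768) and 0.703 for Slc38a4 (rho 0.762). Slc7a2 reached 0.471 (rho 0.465), and r of the 6 enzymes lay between -0.004 and 0.281. Without Control replicates 1 and 3, the 2 mice farthest from the median score, r was 0.655 for Slc38a3, 0.651 for Slc38a2 and 0.632 for Slc38a4. These values are a description with no test, since the list was chosen by levels over the groups. The Control group also had both the highest median score and the highest Slc38a3.
Scores differed between groups as well, from 1.33 to 3.36 in Control, -4.52 to 2.42 in CE, -6.48 to 2.17 in Sirt2-/- and -4.69 to 0.87 in Sirt2-/-/CE livers. For deviations from group means within the 16 mice, r was 0.382 for Slc38a3, 0.729 for Slc38a2 and 0.59 for Slc38a4, so that the value of Slc38a3 was lower once group means were removed. The hour at which each liver was taken is not given in the sources used here, and its part in these values was not tested.

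**Figure D4:**
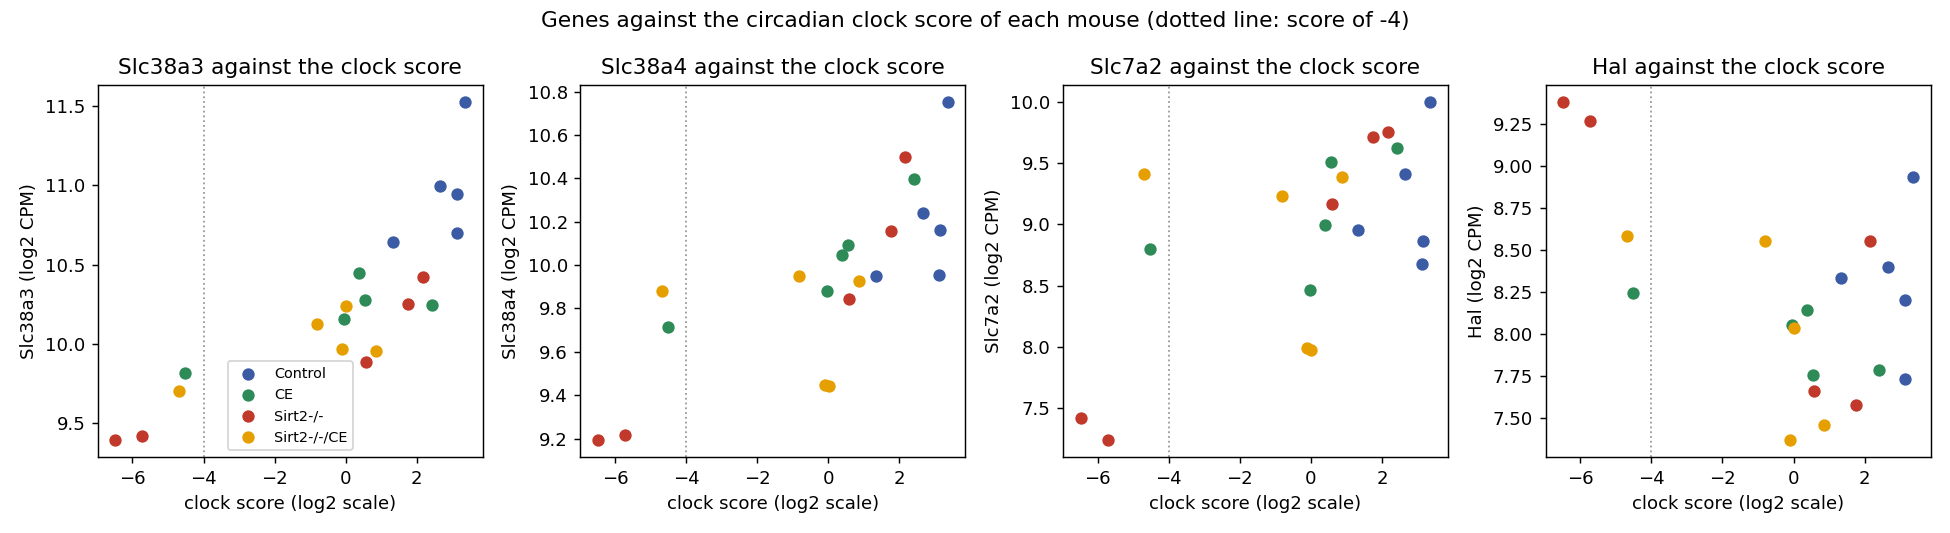
Log2 CPM of Slc38a3, Slc38a4, Slc7a2 and Hal against the clock score of each mouse, with a dotted line at a score of -4. The 4 mice left of the line have the lowest Slc38a3 of all, and 2 of them, both Sirt2-/-, have the lowest Slc38a4 and Slc7a2 and the highest Hal.

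Marker sums of other cells are set beside these levels. The 5 Kupffer cell markers in the table of 6 listed, of which none was at 0 in all mice, summed to 33.3 to 122 FPKM in Control, 31.4 to 142 in CE, 87.8 to 147 in Sirt2-/- and 107 to 149 in Sirt2-/-/CE livers. The 6 pericentral hepatocyte genes, from the zone where Slc38a3 is known to be expressed, summed to 4280 to 6510 FPKM in Control, 3720 to 5110 in CE, 2420 to 5350 in Sirt2-/- and 3790 to 5630 in Sirt2-/-/CE livers. The 5 periportal genes summed to 2180 to 3610 FPKM in Control and 2770 to 3730 in Sirt2-/- livers. Ranges of the pericentral and periportal sums overlapped between all groups. Of the 6 pericentral genes, 3 had a higher and 3 a lower mean in Sirt2-/- against Control (median -0.12). At an unadjusted p under 0.05, 2 were lower, against 14.9% of all genes at that level in either direction. Rgn had a log2 fold change of -0.86 (SE 0.26, edgeR adjusted p = 0.113) and no overlap between the groups. Cyp1a2 had -0.69 (SE 0.24, edgeR adjusted p = 0.162). With the clock score as a covariate 1 of the 6 was lower, against 7.27% of all genes, and the median was 0.19.
The 6 sinusoidal endothelial markers, none at 0 in all mice, summed to 20.8 to 92.2 FPKM in Control, 11.5 to 59.9 in CE, 39.4 to 102 in Sirt2-/- and 68.6 to 104 in Sirt2-/-/CE livers. Of these, 6 of 6 were higher in Sirt2-/-/CE against CE at an unadjusted p under 0.05 (median log2 fold change 1.34), against 6.09% of all genes in either direction. So were 4 of 5 Kupffer cell markers (median 0.81) and 2 of 5 stellate cell markers (median 0.67), while 2 of 5 cholangiocyte markers were lower. In CE against Control 3 of 6 endothelial markers were lower (median -0.85), against 10.7% of all genes, and no marker passed the adjusted threshold in either comparison. Without the 4 mice of low clock score 6 of 6 endothelial markers were lower in CE against Control (median -1.15) and 6 of 6 higher in Sirt2-/-/CE against CE (median 1.69).
Marker calls at the same level are also given for the comparisons where Slc38a3 was farthest from Control. Against Control, Sirt2-/-/CE livers had 2 of 5 Kupffer cell markers higher (median 0.72), and 2 of 5 cholangiocyte and 1 of 4 leukocyte markers lower, beside 11.2% of all genes. Between Sirt2-/- and Control 0 of 5 Kupffer cell markers passed (median 0.40), 1 marker each of hepatocytes (Apoa1, -0.66, SE 0.23), cholangiocytes, leukocytes and erythroid cells was lower, and so was the 1 exocrine pancreas marker tested, Cela1 (-1.15, SE 0.29, edgeR adjusted p = 0.0584), beside 14.9% of all genes. The 5 stellate cell markers summed to 36.5 to 84.5 FPKM in Control, 11.6 to 73.2 in CE, 37.6 to 101 in Sirt2-/- and 64.2 to 83.7 in Sirt2-/-/CE livers, and the 5 cholangiocyte markers to 23.1 to 51.7, 22.4 to 39.4, 18.9 to 28.7 and 13.7 to 24.5 FPKM. Between CE and Sirt2-/-/CE livers, where the endothelial sums did not overlap, the log2 fold change of Slc38a3 was -0.19 (SE 0.21). The part of cell makeup in the levels of these genes was not tested.

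For each gene, the 2 genes outside the list with the most similar pattern over the 20 mice were found among 10384 genes by Pearson's r of log2 CPM. Hal was closest to Amdhd1 (r 0.882), which encodes a later enzyme of the same histidine pathway, and to Pot1a (0.872). Slc7a2 was closest to Bnip3l (0.925) and Ppm1k (0.916), the phosphatase of the branched-chain keto acid dehydrogenase. Slc38a4 was closest to Zdhhc20 (0.919) and Tapt1 (0.911), Slc38a3 to Fam76a (0.889) and Ngef (0.886), and Slc38a2 to 3110043O21Rik (0.893) and Tnfrsf1b (0.888).
Gpt was closest to Adh1 (0.861), the alcohol dehydrogenase of liver, and to Dhrs7 (0.856). Sds was closest to Prr3 (0.87) and Prdx4 (0.796), Got1 to Vtn (0.832) and Zfp574 (0.82), and Gls2 to Ggt6 (0.793) and Gm10284 (0.78). Asns had the least similar neighbours, Abcb8 (0.706) and Eif2d (0.661). These values were picked as the highest of many and are a description.

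The wider pathway was followed with a list of other amino acid transporters and enzymes, of which 118 were in the table and 107 were tested, and 0 passed an adjusted p of 0.05 in any comparison in the edgeR fit of 20 libraries with TMM scaling. In CE against Control 6 were higher and 5 lower at an unadjusted p under 0.05, which is 10.3% of the list against 10.7% of all genes, with a median log2 fold change of -0.01. In Sirt2-/- against Control 11 were higher and 23 lower, 31.8% of the list against 14.9% of all genes, and 66.4% of the list had a lower mean against 48.3% of all genes, with a median of -0.14. Without the 4 mice of low clock score these fell to 2 higher and 12 lower, 13.1% of the list against 8.02% of all genes, with 62.6% of the list lower against 49.4% and a median of -0.10, and with the clock covariate to 4 and 13, 15.9% against 7.27%. In Sirt2-/-/CE against Sirt2-/- 11 were higher and 3 lower, 13.1% of the list against 7.25% of all genes, with a median of 0.08, and without those mice 7 and 1, 7.48% against 5.39%. The numbers were 1 and 6 in Sirt2-/-/CE against CE (6.54% against 6.09% of all genes) and 6 and 4 in Sirt2-/-/CE against Control (9.35% against 11.2%). With the clock covariate Sirt2-/-/CE against Control had 7 and 7 (13.1% against 10.1%). The interaction had 14 and 3 (15.9% against 8.34%), and 8 and 3 with the clock covariate (10.3% against 5.76%). By DESeq2, 10 genes of the list had an adjusted p under 0.05 in Sirt2-/- against Control, 3 in CE against Control and 2 in Sirt2-/-/CE against Control, among 607, 188 and 237 of all genes. By limma voom the numbers were 18, 5 and 6, among 906, 540 and 340. Other edgeR settings called 0 to 3 of the list in Sirt2-/- against Control and 0 to 2 in CE against Control.

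By class, in Sirt2-/- against Control and beside the 14.9% of all genes at an unadjusted p under 0.05, the enzymes of branched-chain amino acid breakdown had 6 of 20 lower and 2 higher at that level, with a median log2 fold change of -0.23. The lower ones, with log2 fold changes from -0.70 to -0.31, were Bckdhb, Auh, Hibadh, Mccc1, Mccc2 and Pccb. The higher ones were Bcat2 (0.58, SE 0.22), the aminotransferase of the first step, and Bckdk (0.55, SE 0.17), the kinase that switches the keto acid dehydrogenase off.
The class of phenylalanine and tyrosine had 4 of 8 lower and 0 higher (median -0.20), namely Qdpr, Pcbd1, Fah and Gstz1. That of glutamine, glutamate, aspartate and alanine had 4 of 14 lower, namely Aspg, Asrgl1, Aldh4a1 and Gpt2, the mitochondrial counterpart of Gpt (-0.56, SE 0.25), and 1 higher (median -0.20). That of serine, glycine and threonine had 3 of 16 lower, Sardh, Agxt2 and Dmgdh, and 1 higher, Gldc of the glycine cleavage system (0.94, SE 0.31), with a median of -0.22. That of lysine had 1 of 5 lower, Gcdh (median -0.13). The other histidine enzymes had 2 of 4 lower (median -0.31), namely Uroc1 (-0.39, SE 0.15) and Ftcd (-0.32, SE 0.13), both of the pathway that Hal starts. Without the 4 mice of low clock score the log2 fold changes were -0.30 (SE 0.19) for Uroc1, -0.28 (SE 0.16) for Ftcd, -0.37 (SE 0.30) for Hal and -0.58 (SE 0.29) for Amdhd1, which was at -0.14 (SE 0.31) with all mice and -0.76 (SE 0.28) with the clock covariate. Of the enzymes of methionine and cysteine, 7 of 11 had a higher and 4 a lower mean (median 0.30), and at an unadjusted p under 0.05 Csad, Cth and Suox were higher and 0 lower. Of the other SLC38 carriers Slc38a10 was higher and Slc38a6 lower among 5 (median 0.10), and of the SLC7 and SLC3 carriers Slc7a7 and Slc7a8 were higher among 7 (median 0.32). The other plasma membrane transporters had 2 of 12 lower, Slc43a1 (-1.44, SE 0.40) and Slc6a12, and 1 higher, Slc1a4 (median -0.24), and the mitochondrial carriers had 0 of 5 (median 0.04). These genes were named after their values were seen, and none passed the adjusted threshold.
The class values depended on the 4 mice of low clock score. Without them, and beside 8.02% of all genes, the branched-chain class had 3 of 20 lower and 0 higher (median -0.09), phenylalanine and tyrosine 1 of 8 lower (median -0.12), glutamine, glutamate, aspartate and alanine 2 of 14 lower and 0 higher (median -0.14), and serine, glycine and threonine 3 of 16 lower and 0 higher (median -0.14). The histidine class then had 0 of 4 (median -0.29) and the lysine class 0 of 5 (median -0.10), while methionine and cysteine had 1 higher and 1 lower of 11 (median 0.096). Of the transporters, the other SLC38 carriers had 1 of 5 higher (median 0.18), the SLC7 and SLC3 carriers 0 of 7 (median 0.15), the other plasma membrane transporters 2 of 12 lower (median -0.13) and the mitochondrial carriers 0 of 5 (median 0.13).
In CE against Control the medians of these classes lay between -0.18 for histidine and 0.13 for methionine and cysteine, and the other SLC7 and SLC3 carriers were at 0.35. In Sirt2-/-/CE against Sirt2-/- the medians of the phenylalanine and tyrosine class and of the branched-chain class were 0.31 and 0.15. Since Sirt2-/- livers enter both comparisons, opposite signs in them are not independent.

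The genes with the lowest unadjusted p are named. In CE against Control they were Aspg, an asparaginase, with a log2 fold change of -0.75 (SE 0.18, edgeR adjusted p = 0.166), and Slc16a10, a carrier of aromatic amino acids, with 0.79 (SE 0.20, edgeR adjusted p = 0.183). In Sirt2-/- against Control they were Hibadh, a dehydrogenase of valine breakdown, with -0.47 (SE 0.11, edgeR adjusted p = 0.053), and Bckdhb, a subunit of the branched-chain keto acid dehydrogenase, with -0.70 (SE 0.17, edgeR adjusted p = 0.0578). In Sirt2-/-/CE against Sirt2-/- they were Pcbd1, with 0.44 (SE 0.15), and Qdpr, with 0.40 (SE 0.14), both at an edgeR adjusted p of 0.559 and both enzymes that renew the cofactor of phenylalanine hydroxylase.

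**Figure D5:**
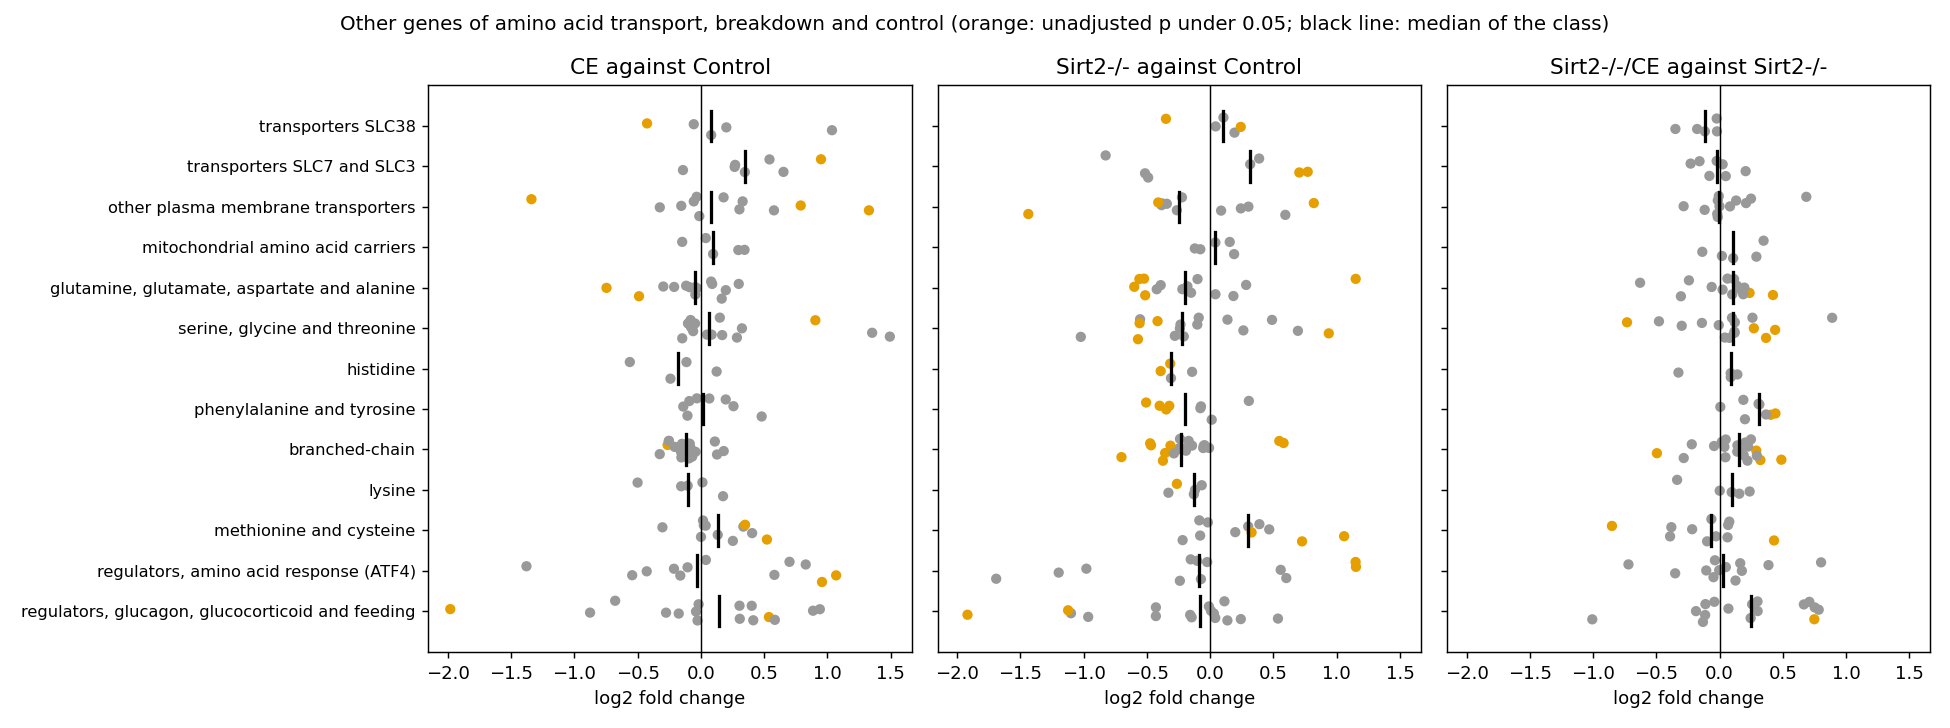
Log2 fold change (horizontal axis) of the other genes of amino acid transport, breakdown and control by class, 1 point a gene, with the class median as a black line and genes at an unadjusted p under 0.05 in orange. In Sirt2-/- against Control the medians of the breakdown classes lie left of 0 except for methionine and cysteine, at 0.30.

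Of the 28 regulators listed, none passed the adjusted threshold by edgeR in CE or Sirt2-/- against Control. At an unadjusted p under 0.05, Atf5, Ddit3 and Crem were higher and Irs2 was lower in CE, and Atf5 and Ddit3 were higher and Irs2 and Srebf1 lower in Sirt2-/- livers. These are 4 of 28 in each comparison, against 10.7% and 14.9% of all genes. The counts moved with the clock covariate. In CE against Control 3 of 12 regulators of the amino acid response were then higher, against 10.8% of all genes. Of the 16 regulators of glucagon, glucocorticoid and feeding control, 4 were higher and 1 lower. In Sirt2-/- against Control the covariate left 2 of 12 higher and 0 of 16, against 7.27% of all genes. Atf4, the factor of the amino acid response, had log2 fold changes of -0.11 (SE 0.20) in CE and -0.07 (SE 0.20) in Sirt2-/-, each against Control. Atf5, a relative of it, had 1.07 (SE 0.35, edgeR adjusted p = 0.262) and 1.15 (SE 0.35, edgeR adjusted p = 0.11), and Ddit3, which encodes CHOP, had 0.96 (SE 0.38, edgeR adjusted p = 0.361) and 1.15 (SE 0.38, edgeR adjusted p = 0.146). These regulators were also named after their values were seen. Asns, whose element is shown above, had -0.15 (SE 0.48) and -0.58 (SE 0.48) in the same comparisons.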

How the data were processed

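Liver RNA was enriched on oligo(dT) beads and sequenced on an Illumina instrument. The authors deposited 1 table with a whole-number read count and an FPKM value per gene and mouse. The deposited counts are not normalized, and the deposited FPKM values are scaled to gene length and depth. The submitters' processing notes name build mm10; the aligner, counter, strand setting and annotation release are not given in the sources used here. Lines that hold no gene (9) were left out, and predicted genes took 0.359% to 0.618% of each library.

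Groups were taken from the sample labels. Counts of all 20 libraries were fitted together in R 4.3.3 with edgeR 4.0.16 (filterByExpr with a minimum count of 10 and total of 15, TMM scaling, quasi-likelihood test, Benjamini-Hochberg adjustment over 15616 genes). Precision is set by the spread between mice and by depth, 35499796 to 53917339 counts. CPM use TMM-scaled library sizes, with a prior count of 2 on the log2 scale. Alternatives were DESeq2 1.42.0, limma 3.58.1 (voom with sample weights, and log2(FPKM + 1)), other scalings and filters, fits of only the groups compared, the removal of each mouse and a covariate for the clock score. The removal of the 4 mice with a clock score under -4, their removal from correlations, the lists under both clock settings and overlaps in FPKM were chosen after seeing the data.

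The members and lists were chosen with earlier results of these data known. A member is given its fold change with SE and adjusted p where its unadjusted p is under 0.05, with others by range, count or, where their values are listed, fold change and SE. From the pathway list, the rule named genes past the adjusted threshold, or else the 2 of lowest p in 3 comparisons. The other genes of its classes, the regulators and the markers that are named at an unadjusted p under 0.05 fall outside this rule and were chosen after their values were seen. For likeness, the 2 genes of highest r with a mean of at least 1 FPKM are named. Positions and overlapping genes come from GENCODE vM21 on GRCm38, and similar genes were searched with BLAST+ 2.17.0 at 95% identity over 150 bases. Besides the Sds overlap, Slc7a2 shares 635 of 9135 exon bases with Gm26584 and Gls2 shares 97 of 3474 with Spryd4, both on the other strand. Plots used Python 3.11.15 and matplotlib 3.10.9. In the pathway list, 1 gene is counted and not reported by name.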

Additional observations from a re-analysis of the deposited data

Results flagged for a closer look

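The 10 genes were checked on log2 CPM, in each of the 4 groups, for a mouse far from the other 4. Of the 40 sets 3 held such a mouse, where chance gives about 1 in 20. The levels are given in CPM. Slc38a2 was at 558 CPM in CE replicate 8, against 107 to 171 CPM in the other CE livers. In the same mouse Got1 was at 640 CPM, against 251 to 311 CPM in the others. Sds was at 55.1 CPM in Sirt2-/- replicate 15, a mouse of low clock score, against 190 to 208 CPM in the other Sirt2-/- livers.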

How the results depend on the processing

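No paired analysis was possible because no replicate number is shared between groups. The fold changes of Slc38a3 and Slc38a4 with an unadjusted p under 0.05 and the 7 correlations past the adjusted threshold kept their direction under the alternatives run, which were not run for single genes of the pathway list and regulators, apart from the clock settings of Uroc1, Ftcd and Amdhd1; the fold change of Hal in Sirt2-/- against Control, 0.31, was -0.42 with the clock covariate and -0.37 without the 4 mice of low score. Genes of the list past an adjusted p of 0.05 numbered 0 in CE against Control and 1, Slc38a3, under DESeq2 and voom; 1 in Sirt2-/- against Control, and 0 in the fit of the 2 groups, with the clock score as a covariate and without the 4 mice of low score (0 to 1 without 1 mouse); and 0 in Sirt2-/-/CE against Control, and 1 under DESeq2 and voom (0 to 1 without 1 mouse, the 1 being Slc38a3 without Control replicate 4, adjusted p = 0.0355). Over all genes, CE against Control gave 1 call, with 188 by DESeq2, 540 by voom, 0 in the fit of the 2 groups, 2 with the clock covariate, 2 without the 4 mice and 0 to 71 without 1 mouse. Sirt2-/- against Control gave 139 calls (60 higher, 79 lower), with 607 by DESeq2, 906 by voom, 419 by library size (330 higher, 89 lower, the median of all genes shifting to 0.16), 329 on FPKM (234 higher, 95 lower), 209 with at least 10 counts in every library, 35 with no filter, 29 in the fit of the 2 groups, 0 with the clock covariate, 0 without the 4 mice and 5 to 387 without 1 mouse. Sirt2-/-/CE against CE gave 2, with 31 by DESeq2, 1 by library size, 1 without the 4 mice, 0 in the fit of the 2 groups and 1 to 4 without 1 mouse. Sirt2-/-/CE against Control gave 19, with 237 by DESeq2, 340 by voom, 7 with no filter, 3 in the fit of the 2 groups, 1 with the clock covariate, 2 without the 4 mice and 0 to 67 without 1 mouse. Sirt2-/-/CE against Sirt2-/- gave 0, with 7 by DESeq2, and the interaction 0, with 41 by DESeq2 and 0 to 2 without 1 mouse. Of the pathway list, Sirt2-/- against Control gave 0 calls, with 3 by library size, 3 with at least 10 counts in every library, 2 on FPKM, 1 in the fit of the 2 groups, 3 without Sirt2-/- replicate 13 and 1 without Control replicate 4, and CE against Control gave 0, with 1 under the clock covariate and 2 without Control replicate 4. The adjusted p of the Slc38a3 interaction ranged from 0.183 to 0.839. The cause of these differences was not tested.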
